A study of Mus musculus with 6 samples.

Results

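The genes described here encode NADH:ubiquinone oxidoreductase, mitochondrial complex I, and were taken as all probes whose platform gene symbol begins with Nduf. That rule found 65 of the 45281 probes on the array, naming 43 genes. A probe was called detected when its detection p was under 0.05 on at least 3 arrays, which held for 54 Nduf probes and 40 Nduf genes, out of 18627 detected probes and 11280 genes in all. By their known roles, 34 of the 43 genes encode subunits, of which 32 were detected, and 7 encode assembly factors, of which 6 were detected. The remaining pair comprises Ndufa4, whose protein is now counted as a subunit of cytochrome c oxidase, and Ndufs5-ps, a pseudogene.

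Messenger RNA was measured on an Illumina bead array in primary cortical neurons of C57BL/6J mice after 14 days in culture. The miR-27bKD group received a lentivirus that knocks down the microRNA miR-27b and the CTKD group a control lentivirus, with 3 arrays in each group from a series that describes 3 neuronal preparations. Both groups carried the Dicerflox/flox genotype, and the labels name no Cre. Virus was added at a multiplicity of infection of 5 once cells had attached, and the sources used here do not give the promoter or cassette of either virus. The array reads messenger RNA, so the level of miR-27b itself, which would check the labels, was not analysed here. Arrays held 17498 to 19163 probes with a detection p under 0.05, and their mean intensity was 669 to 788. Across probes, Spearman correlations between arrays were 0.876 to 0.907, with miR-27bKD 3 lowest at 0.876 to 0.886. Of 10 neuronal marker genes 7 were detected, among them Rbfox3, Map2 and Tubb3, whereas Snap25, Nefl and Neurod6 were not.

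Complex I takes electrons from NADH, passes them along a chain of iron-sulfur clusters to ubiquinone and pumps protons across the inner mitochondrial membrane. Its peripheral arm reaches into the matrix and holds the NADH-oxidising N module and the ubiquinone-reducing Q module. Its membrane arm holds the proton pumps, which are encoded by mitochondrial DNA, wrapped by many accessory subunits from nuclear genes. Assembly factors join the modules step by step and leave the finished enzyme. Neurons draw most of their ATP for ion pumping and transmitter release from oxidative phosphorylation, and inherited defects of complex I in humans give encephalopathies such as Leigh syndrome. None of the 7 mitochondrially encoded subunit genes had a probe on the array, so only nuclear genes are described.

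The microRNA that the virus targets is given first. Both mature strands of the mouse miR-27b hairpin are shown, since the labels do not name the strand, with the seed (bases 2 to 8) in capitals. Sequences and positions are those of RefSeq on GRCm38.p6, where the 3p strand lies at chr13:63300760-63300780 and the 5p strand at chr13:63300718-63300739, both on the plus strand.
mmu-miR-27b-3p: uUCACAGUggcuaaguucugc
mmu-miR-27b-5p: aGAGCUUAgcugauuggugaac

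Promoter windows are shown for 3 subunit genes that passed the test in every processing setting tried (Ndufa6, Ndufa8 and Ndufb4) and for Ndufaf2, the assembly factor gene that was higher in miR-27bKD neurons. Ndufb9 also passed in every setting, but no promoter window was available for it. Each window runs from 250 bases before the annotated start to 50 bases after it, 300 bases in all, read 5′ to 3′ on the gene's strand, which is the minus strand for all 4. The windows are chr15:82354242-82354541 for Ndufa6, chr2:36049289-36049588 for Ndufa8, chr16:37654319-37654618 for Ndufb4 and chr13:108158576-108158875 for Ndufaf2. Capitals mark matches, on either strand, to short motifs of factors known for binding promoters of respiratory chain genes. These were CCGGAAG for the ETS family, GCATGCG for NRF1, AAGATGG for YY1 and GGGCGGG for Sp1.
Ndufa6: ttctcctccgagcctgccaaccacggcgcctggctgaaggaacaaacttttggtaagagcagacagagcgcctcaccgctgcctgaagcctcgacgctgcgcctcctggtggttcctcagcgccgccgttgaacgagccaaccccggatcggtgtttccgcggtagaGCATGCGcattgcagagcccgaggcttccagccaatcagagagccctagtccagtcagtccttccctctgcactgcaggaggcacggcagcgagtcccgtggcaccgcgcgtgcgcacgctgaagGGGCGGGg
Ndufa8: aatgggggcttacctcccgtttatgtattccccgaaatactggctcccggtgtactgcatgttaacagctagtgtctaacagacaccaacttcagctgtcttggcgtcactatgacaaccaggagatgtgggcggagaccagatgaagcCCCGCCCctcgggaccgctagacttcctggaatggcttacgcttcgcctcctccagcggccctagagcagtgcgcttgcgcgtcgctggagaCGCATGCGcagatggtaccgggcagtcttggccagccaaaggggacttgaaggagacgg
Ndufb4: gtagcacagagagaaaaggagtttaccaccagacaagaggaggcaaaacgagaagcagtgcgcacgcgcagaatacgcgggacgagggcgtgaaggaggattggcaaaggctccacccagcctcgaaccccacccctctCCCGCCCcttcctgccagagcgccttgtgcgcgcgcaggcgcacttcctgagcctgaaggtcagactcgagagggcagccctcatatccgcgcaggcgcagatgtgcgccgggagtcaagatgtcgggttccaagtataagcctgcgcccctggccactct
Ndufaf2: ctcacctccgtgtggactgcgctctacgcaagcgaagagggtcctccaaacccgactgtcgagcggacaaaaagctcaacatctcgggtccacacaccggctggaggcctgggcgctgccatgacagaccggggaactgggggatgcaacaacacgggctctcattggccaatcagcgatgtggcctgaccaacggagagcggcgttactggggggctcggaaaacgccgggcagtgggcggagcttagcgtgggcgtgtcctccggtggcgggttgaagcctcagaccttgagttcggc

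Ndufa6 had 1 NRF1 match and 1 Sp1 match. Ndufa8 had 1 Sp1 match and 2 NRF1 matches, which are the overlapping readings of a single site on both strands. Ndufb4 had 1 Sp1 match, and Ndufaf2 had none of the 4 motifs.

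RefSeq gave 40 windows for 38 of the 43 genes, and 33 of these windows belonged to subunit genes. YY1 letters stood in 7 of the 33 subunit windows (21.2%), against 6.34% of the 32851 windows in the whole table. These letters contain ATG and, in the 7 subunit windows, stood after the annotated start. A start codon and a factor site were not told apart there. NRF1 letters stood in 3 subunit windows (9.09%, against 3.58%), ETS letters in 4 (12.1%, against 8.86%) and Sp1 letters in 13 (39.4%, against 25.6%). Subunit windows also had a higher GC content, with a median of 59.3% against 52.7%. Among subunit genes that passed the test as lower, the 10 windows held NRF1 letters in 2 cases, ETS letters in 2, YY1 letters in 1 and Sp1 letters in 5. The 22 windows of subunit genes that did not pass held NRF1 letters in 1 case, ETS letters in 2, YY1 letters in 6 and Sp1 letters in 8. These are letter matches, given as a description with no test.

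In miR-27bKD neurons the complex I subunit genes were lower as a group, by small amounts. All 32 detected subunit genes had a difference below 0 (miR-27bKD minus CTKD), against 5555 of the 11280 genes tested (49.2%). The median subunit difference was −0.20 on the log2 scale, against 0.0058 over all genes. Of the 32 genes 11 fell (adjusted p under 0.05, limma over all genes) and 0 rose, with 21 not passing. Among all genes 15.3% fell and 16.6% rose, and 34.4% of the subunit genes fell. At an unadjusted p under 0.05, 15 subunit genes were lower and 0 higher, where 21.2% of all genes were lower and 22.5% higher. Every count of subunits here is a description of the list, which was given no test of its own.

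Lower values stood on each knockdown array. Relative to each gene's CTKD mean, the median over the 32 subunit genes was −0.27 on miR-27bKD 1, −0.21 on miR-27bKD 2 and −0.14 on miR-27bKD 3, against 0.0024 on CTKD 1, −0.033 on CTKD 2 and 0.027 on CTKD 3. The knockdown arrays thus all lay below the control arrays, with miR-27bKD 1 lowest. The lowest of the 6 arrays was miR-27bKD 1 for 19 subunit genes, miR-27bKD 2 for 6, miR-27bKD 3 for 4, CTKD 2 for 2 and CTKD 3 for 1. A CTKD array was highest for every subunit gene. For 21 subunit genes the groups did not overlap, with all knockdown arrays lower, a state found in 23.5% of all genes.

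**Figure D1:**
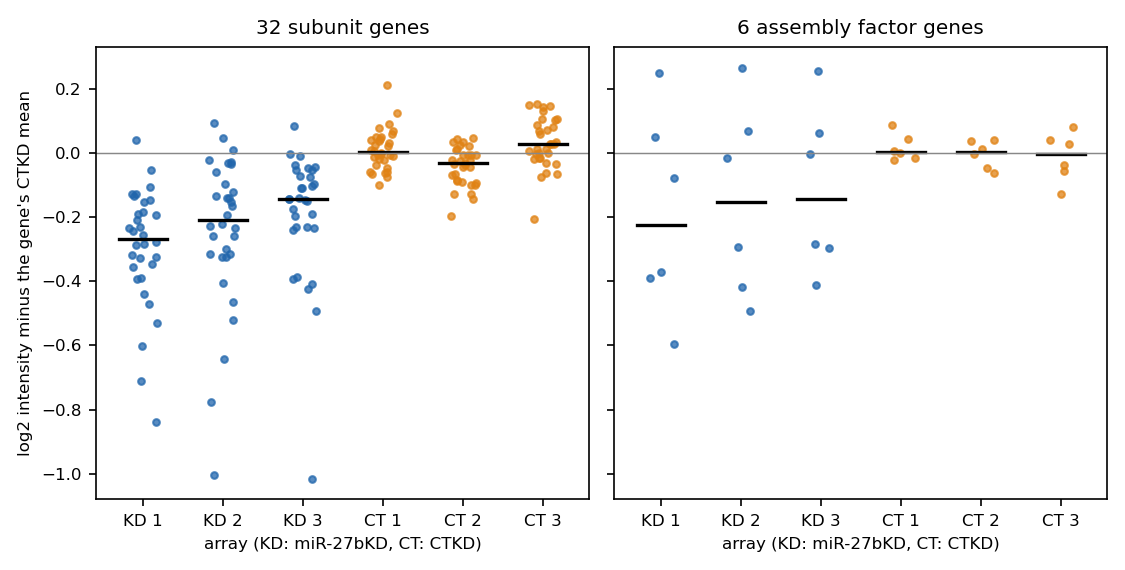
Each point is 1 gene on 1 array, as log2 intensity minus that gene's mean over the 3 CTKD arrays (vertical axis), for 32 subunit genes (left) and 6 assembly factor genes (right), with a black bar at the median of each array. The subunit medians lie at −0.27, −0.21 and −0.14 on the miR-27bKD arrays and between −0.033 and 0.027 on the CTKD arrays.

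Same-numbered arrays were taken as pairs from 1 preparation, and 27 of the 32 subunit genes were lower in all 3 pairs, as were 31.6% of all genes. The pair medians of the subunit genes were −0.27, −0.18 and −0.19. With the pair as a block, 9 subunit genes fell and 0 rose, where 16.3% of all genes fell. The number passing also depended on single arrays. It was 4 without CTKD 1, 5 without CTKD 2, miR-27bKD 1 or miR-27bKD 2, 6 without CTKD 3 and 9 without miR-27bKD 3, in fits where 9.29% to 13.1% of all genes fell.

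Cell type markers moved as well. Beside the counts given here, 15.3% of all genes fell and 16.6% rose. With the pair as a block these shares were 16.3% and 17.1%. Summed deposited intensity of the 7 detected neuronal markers was 74958 to 88824 on miR-27bKD arrays, against 99824 to 111731 on CTKD arrays, and 4 of the 7 fell (Syt1, Slc17a7, Eno2 and Rbfox3). Stmn2 rose (0.30, adjusted p = 0.0282, and 0.0510 with the pair as a block), and Map2 (0.11) and Tubb3 (0.17) did not pass. The 9 detected of 10 inhibitory neuron markers summed to 30691 to 39481 on miR-27bKD arrays, against 63714 to 78415 on CTKD arrays, and 7 fell. The remaining 2 inhibitory markers did not pass and were not below 0, the higher at 0.096. The 9 detected of 10 astrocyte markers summed to 19759 to 22135 on miR-27bKD arrays, against 26736 to 33070 on CTKD arrays, and 4 fell. Of oligodendrocyte lineage markers 4 of 10 were detected, summing to 5284 to 7043 on miR-27bKD arrays and 9011 to 10905 on CTKD arrays, with Olig2, Sox10, Mog, Pdgfra and Mag among the undetected. Of microglial markers 1 of 10 was detected, Aif1, at 149 to 159 on miR-27bKD arrays and 115 to 139 on CTKD arrays. Of vascular and fibroblast markers 4 of 10 were detected, summing to 1193 to 1706 on miR-27bKD arrays and 1152 to 2138 on CTKD arrays. With the pair as a block the astrocyte marker Gja1 (adjusted p = 0.0195), the oligodendrocyte lineage markers Olig1 (0.0123) and Cnp (0.0249) and the vascular marker Pecam1 (0.0243) also passed as lower, and Col1a1 (0.0399) as higher. The part of these shifts in the complex I result was not tested. In RNA from a whole culture, fewer cells of a type and less RNA per cell cannot be told apart.

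The 5 detected core subunit genes are those conserved from bacteria and needed for electron transfer in the peripheral arm. Of them Ndufv1 and Ndufs3 fell (40%, against 15.3% of all genes), and the median was −0.24. Ndufv1 encodes the subunit that binds NADH and flavin. Its log2 intensity was 13.11, 13.07 and 13.18 on miR-27bKD arrays 1 to 3 and 13.38, 13.38 and 13.35 on CTKD arrays 1 to 3. All knockdown arrays were lower and the groups did not overlap. The difference was −0.25 (SE 0.073, adjusted p = 0.0417), and with the pair as a block the adjusted p was 0.0671.

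Ndufs3 encodes a Q module subunit, part of the link between the iron-sulfur chain and the membrane arm. It had 12.43, 12.46 and 12.59 in miR-27bKD neurons, against 12.86, 12.70 and 12.80 in CTKD neurons, on the log2 scale. The groups were again separate. The difference was −0.29 (SE 0.087, adjusted p = 0.0428), and 0.0594 with the pair as a block.

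The other 3 core genes encode subunits that carry iron-sulfur clusters and did not pass. Their differences were −0.19 for Ndufv2 (adjusted p = 0.102), −0.24 for Ndufs7 (0.0647) and −0.21 for Ndufs8 (0.160). In all 5 core genes the groups did not overlap, with all knockdown arrays lower, as in 23.5% of all genes. With the pair as a block 0 of the 5 passed.

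Accessory subunits of the peripheral arm surround this core, and 1 of 9 fell (11.1%, against 15.3% of all genes), Ndufa6. Its protein is a small LYR-motif subunit that holds an acyl carrier protein against the arm. Ndufa6 had log2 intensities of 12.77, 12.83 and 12.99 in miR-27bKD neurons and 13.47, 13.47 and 13.49 in CTKD neurons. The control arrays were almost equal, and every knockdown array lay well below them. The difference was −0.62 (SE 0.085, adjusted p = 0.00307, limma), a 1.53-fold lower intensity in the knockdown.

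The other 8 peripheral accessory genes ranged from −0.27 (Ndufa5, adjusted p = 0.0607) to −0.016 (Ndufa7, adjusted p = 0.901). Ndufs4, an accessory subunit whose loss in mice gives a Leigh-like disease, had a difference of −0.12 with a 95% interval of −0.29 to 0.053. Ndufs6, Ndufa2, Ndufa9 and Ndufa12 lay between −0.22 and −0.13, none passing. Over the whole peripheral arm, core included, 3 of 14 genes fell (21.4%), where 15.3% of all genes fell. With the pair as a block 1 of the 14 fell, where 16.3% of all genes fell.

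**Figure D2:**
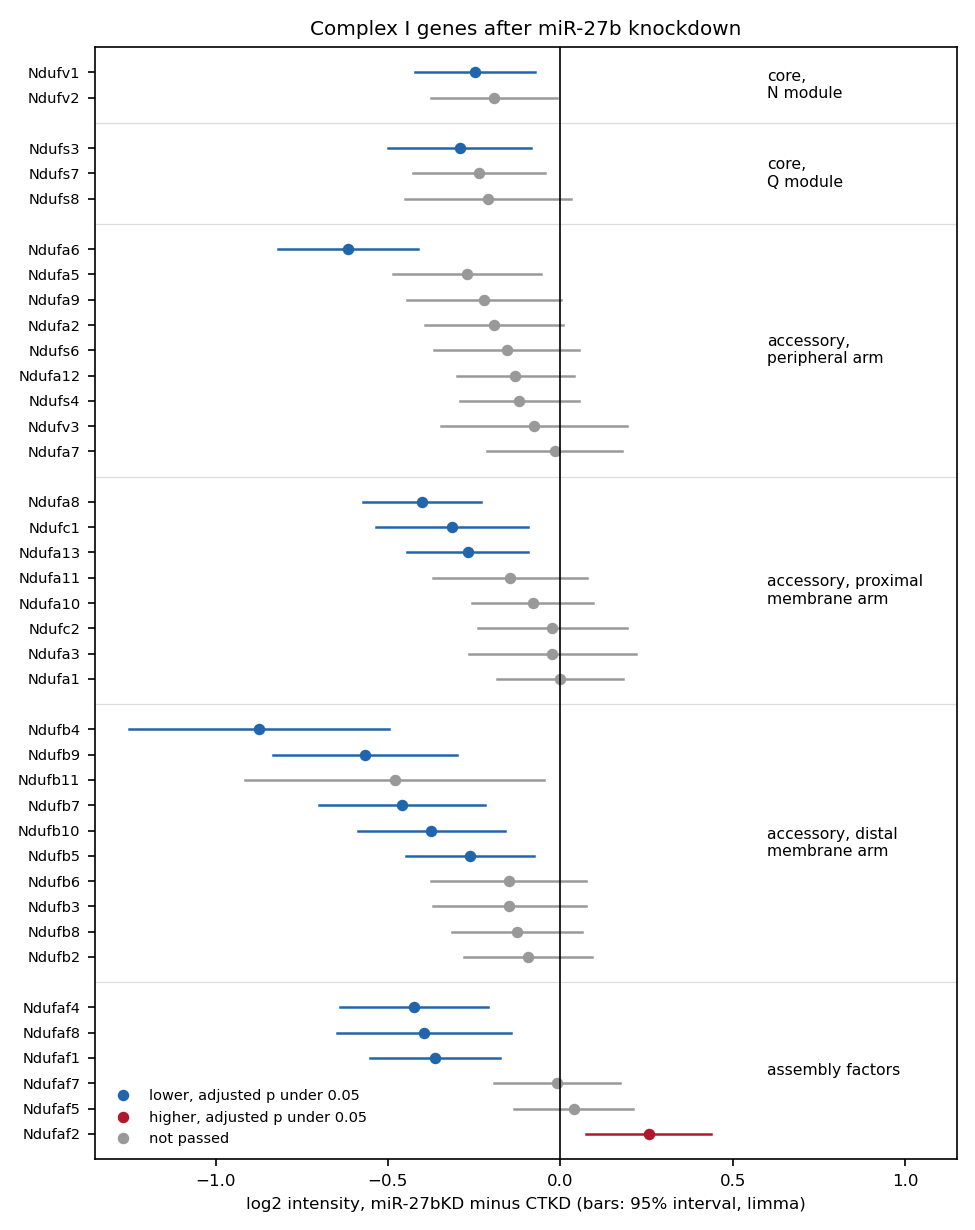
Points are differences in log2 intensity, miR-27bKD minus CTKD, with 95% intervals from limma (3 arrays a group), for 32 subunit and 6 assembly factor genes ordered by role down the page. Blue points fell, the red point (Ndufaf2) rose, and grey points did not pass. Every subunit point lies at or left of 0.

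Accessory subunits of the proximal membrane arm numbered 8, of which Ndufa8, Ndufc1 and Ndufa13 fell (37.5%, against 15.3% of all genes). Ndufa8 encodes a cysteine-rich subunit on the intermembrane space face. Its log2 intensity was 13.16, 13.15 and 13.15 in miR-27bKD neurons, against 13.61, 13.52 and 13.54 in CTKD neurons. Arrays within each group lay close together and the groups were far apart by comparison. The difference was −0.40 (SE 0.071, adjusted p = 0.00733). A second probe gave −0.39 (adjusted p = 0.0277 over all probes).

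Ndufc1 encodes a small membrane-spanning subunit. It had 13.48, 13.55 and 13.64 in miR-27bKD neurons and 13.81, 13.80 and 14.0003 in CTKD neurons, without overlap. The difference was −0.31 (SE 0.092, adjusted p = 0.0409).

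Ndufa13, also called GRIM-19, encodes a membrane subunit first described in cell death. Its values were 14.20, 14.26 and 14.29 in miR-27bKD neurons, against 14.48, 14.55 and 14.52 in CTKD neurons. The groups were separate, and the difference was −0.27 (SE 0.073, adjusted p = 0.0325).

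The other 5 proximal genes did not pass. Among them Ndufa1, an X-linked subunit gene, had 13.86, 13.78 and 13.81 in miR-27bKD neurons and 13.86, 13.85 and 13.74 in CTKD neurons, which overlap throughout. Its 95% interval ran from −0.18 to 0.18. For Ndufa3 the difference was −0.024 (95% interval −0.27 to 0.22) and for Ndufc2 −0.024 (−0.24 to 0.19). The intervals of Ndufa3 and Ndufc2 reach past the subunit median of −0.20, and that of Ndufa1 does not. None of them shows that a gene was unaltered.

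The distal membrane arm, where the largest proton-pumping subunits sit, had 5 of 10 detected accessory genes falling, against 15.3% of all genes. Its median was −0.32. Ndufb4, Ndufb9, Ndufb7, Ndufb10 and Ndufb5 fell. Ndufb4 encodes a membrane-spanning subunit and had the largest difference of any subunit gene. Its log2 intensity was 8.09, 7.68 and 7.67 in miR-27bKD neurons, against 8.90, 8.68 and 8.48 in CTKD neurons. The highest knockdown array lay below the lowest control array. The difference was −0.87 (SE 0.157, adjusted p = 0.00769), a 1.83-fold lower intensity. RefSeq also lists the genes Ndufb4b and Ndufb4c, which no probe names, and signal from them on the Ndufb4 probe cannot be told apart here.

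Ndufb9 encodes a second LYR-motif subunit, which anchors an acyl carrier protein in the membrane arm. Its values were 10.42, 10.18 and 10.56 in miR-27bKD neurons and 10.95, 10.93 and 10.98 in CTKD neurons. Control arrays lay close together and all knockdown arrays lay below them. The difference was −0.57 (SE 0.111, adjusted p = 0.0106), a 1.48-fold lower intensity.

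Ndufb7 and Ndufb10 both encode cysteine-rich subunits exposed to the intermembrane space. Ndufb7 had 9.83, 9.78 and 9.92 in miR-27bKD neurons, against 10.30, 10.16 and 10.46 in CTKD neurons, and differed by −0.46 (SE 0.1003, adjusted p = 0.0153). It did not pass without miR-27bKD 2 (adjusted p = 0.0545) or without CTKD 1 (0.0520). Ndufb10 had 10.90, 11.08 and 10.92 in miR-27bKD neurons, against 11.43, 11.32 and 11.27 in CTKD neurons, and differed by −0.37 (SE 0.089, adjusted p = 0.0211). Neither gene had overlapping groups. A second Ndufb10 probe gave −0.50 (adjusted p = 0.0130 over all probes).

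Ndufb5 encodes a further membrane-spanning subunit of the distal arm. It had 10.74, 10.70 and 10.85 in miR-27bKD neurons and 11.00, 11.04 and 11.02 in CTKD neurons, without overlap. The difference was −0.26 (SE 0.077, adjusted p = 0.0422), and with the pair as a block the adjusted p was 0.0643.

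Ndufb11, an X-linked subunit gene, behaved the other way under pairing. Its values were 6.32, 6.69 and 7.01 in miR-27bKD neurons and 7.09, 7.07 and 7.30 in CTKD neurons, the dimmest of the probes that represented a subunit gene. The groups were separate by a narrow margin. The difference was −0.48 (SE 0.181) with an adjusted p of 0.0865, and 0.0414 with the pair as a block. The other 4 distal genes, Ndufb2, Ndufb3, Ndufb6 and Ndufb8, lay between −0.15 and −0.094 and did not pass. Over the whole membrane arm 8 of 18 genes fell (44.4%), and 8 with the pair as a block, where 15.3% and 16.3% of all genes fell. Whether the membrane arm differed from the peripheral arm was not tested. The distal genes that fell were all read by probes with a mean log2 intensity under 12. No subunit gene outside the distal arm was, so arm and probe brightness cannot be told apart for them.

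**Figure D3:**
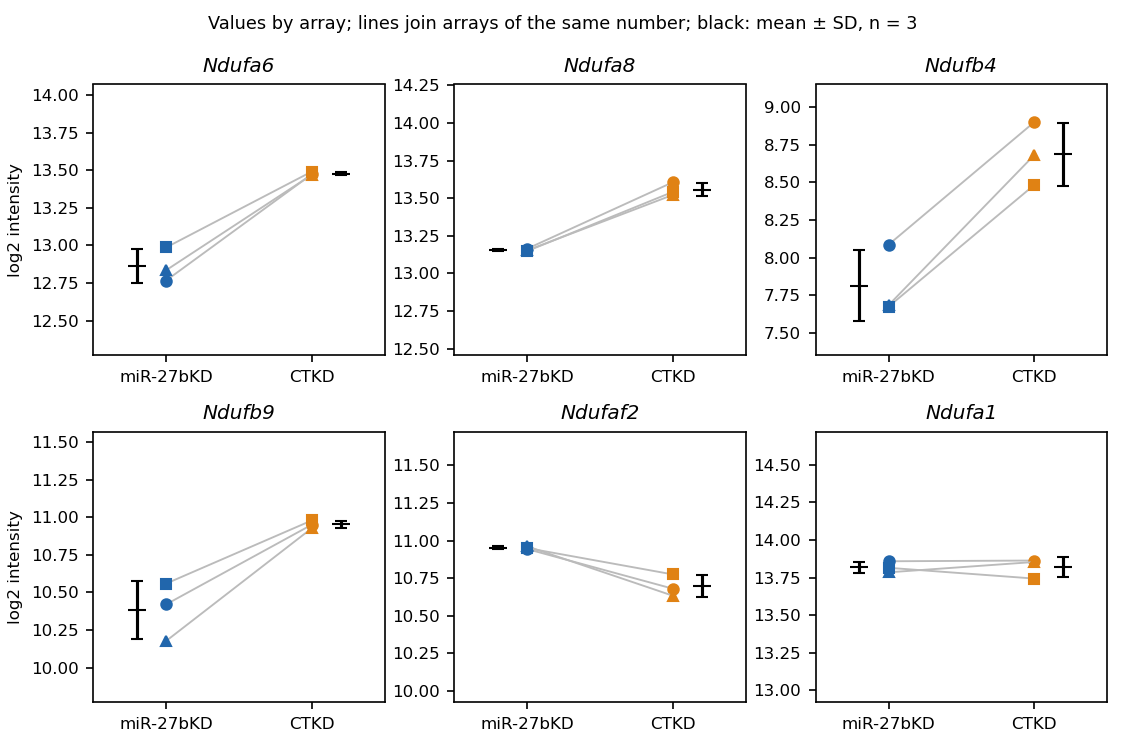
Log2 intensity of 6 genes on each array, miR-27bKD left and CTKD right in each panel, with a grey line joining arrays of the same number and the mean ± SD (n = 3) in black. All panels span the same log2 range. The groups are separate for Ndufa6, Ndufa8, Ndufb4, Ndufb9 and Ndufaf2, and overlap for Ndufa1.

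Assembly factor genes were mixed, and the roles given for them come mainly from human cells. Of the 6 detected, 3 fell and 1 rose, where 15.3% of all genes fell and 16.6% rose, and their median difference was −0.19. Ndufaf1 encodes a member of the complex that builds the proximal membrane arm together with Ecsit, Acad9 and Tmem126b. Its log2 intensity was 10.61, 10.58 and 10.72 in miR-27bKD neurons, against 11.04, 11.01 and 10.95 in CTKD neurons. The groups did not overlap, and the difference was −0.36 (SE 0.078, adjusted p = 0.0147). It did not pass without miR-27bKD 2 (adjusted p = 0.0539) or without CTKD 1 (0.0608).

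Ndufaf4 encodes a factor that works with Ndufaf3 on the Q module. It had 9.76, 9.64 and 9.72 in miR-27bKD neurons and 10.22, 10.17 and 10.001 in CTKD neurons, also without overlap. The difference was −0.43 (SE 0.090, adjusted p = 0.0138). It did not pass without miR-27bKD 2 (adjusted p = 0.0502) or without CTKD 1 (0.0549). The Ndufaf3 transcript was on the array under an older clone name, outside the rule that chose the genes. Its difference was −0.12 (SE 0.091, adjusted p = 0.342).

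Ndufaf8 and Ndufaf5 encode partner proteins, of which Ndufaf5 hydroxylates the core subunit Ndufs7 and Ndufaf8 stabilises Ndufaf5. Ndufaf8 had 9.23, 9.53 and 9.52 in miR-27bKD neurons, against 9.83, 9.78 and 9.86 in CTKD neurons, and fell by 0.39 on the log2 scale (SE 0.105, adjusted p = 0.0304). It passed without miR-27bKD 2 or 3 and failed without each of the other 4 arrays, where adjusted p was 0.0596 to 0.0902. Ndufaf5 had 11.19, 11.20 and 11.13 in miR-27bKD neurons and 11.13, 11.17 and 11.10 in CTKD neurons. The partners therefore had different outcomes in the test, with overlapping groups for Ndufaf5 and separate ones for Ndufaf8. The Ndufaf5 difference was 0.038 (SE 0.072, adjusted p = 0.727), and a second probe gave −0.050 (adjusted p = 0.720 over all probes).

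Ndufaf7, a methyltransferase needed for complex I assembly, had 9.997, 10.06 and 10.14 in miR-27bKD neurons and 10.05, 10.07 and 10.10 in CTKD neurons. The groups overlapped fully, and the difference was −0.011 (SE 0.076, adjusted p = 0.933).

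Ndufaf2 is a paralogue of the subunit Ndufa12 and sits on a late assembly intermediate. It had 10.94, 10.96 and 10.95 in miR-27bKD neurons, against 10.68, 10.63 and 10.77 in CTKD neurons. All knockdown arrays were higher and nearly equal. The difference was 0.26 (SE 0.076, adjusted p = 0.0428), the only passing rise among Nduf genes, and with the pair as a block the adjusted p was 0.0649. Ndufa12 itself had a difference of −0.13 (95% interval −0.30 to 0.038) and did not pass.

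The Nduf genes outside the enzyme were also below 0. Ndufa4 had 14.58, 14.58 and 14.57 in miR-27bKD neurons, against 14.84, 14.90 and 14.79 in CTKD neurons. The groups were separate, with a difference of −0.27 (SE 0.073, adjusted p = 0.0333), and 0.0542 with the pair as a block. Ndufs5-ps differed by −0.24 (SE 0.080, adjusted p = 0.0636). Probe sequences were not examined, and signal from the subunit gene Ndufs5 on the Ndufs5-ps probe cannot be told apart here.

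The genes could also be followed through their separate probes. At probe level 10 of 45 detected subunit probes fell and 0 rose, where 13.6% of all detected probes fell, and 44 of the 45 were below 0. Of 7 detected assembly factor probes 3 fell and 0 rose. With several detected probes for 11 genes, all of a gene's probes were below 0 for 9 of them. The dimmest probe had the lower difference in 8 of the 11. For Ndufc1 the probes differed in call, with −0.31 (adjusted p = 0.0529 over all probes) for the brighter and −0.37 (adjusted p = 0.0280) for the dimmer.

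Ndufv3, a small subunit of the N module with known splice forms, had probes that differed in sign. Its brightest probe had 13.33, 13.53 and 13.47 in miR-27bKD neurons and 13.65, 13.33 and 13.59 in CTKD neurons, with overlap. The probe differences were −0.077, −0.065 and 0.073, and none passed. The files used here do not say which splice form each probe reads.

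Subunit genes read by dimmer probes had a larger median difference. Among the 25 subunit genes with a mean log2 intensity of 12 or more, the median difference was −0.16 and 6 fell. Among the 7 below 12 the median was −0.46 and 5 fell. Over all genes the corresponding medians were 0.0038 (1247 genes, 15.6% falling) and 0.0059 (10033 genes, 15.3% falling). By these medians probe brightness moved with the size of the subunit differences, and its part in them was not tested. All 7 subunit genes below 12 belonged to the distal membrane arm, so brightness and arm cannot be told apart in this split. The distal genes at 12 or more, Ndufb3, Ndufb6 and Ndufb8, lay between −0.15 and −0.13 and did not pass. Single genes departed from this order. Ndufb2, below 12, had −0.094 and did not pass, and Ndufa6, above 12, had −0.62 and fell.

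**Figure D4:**
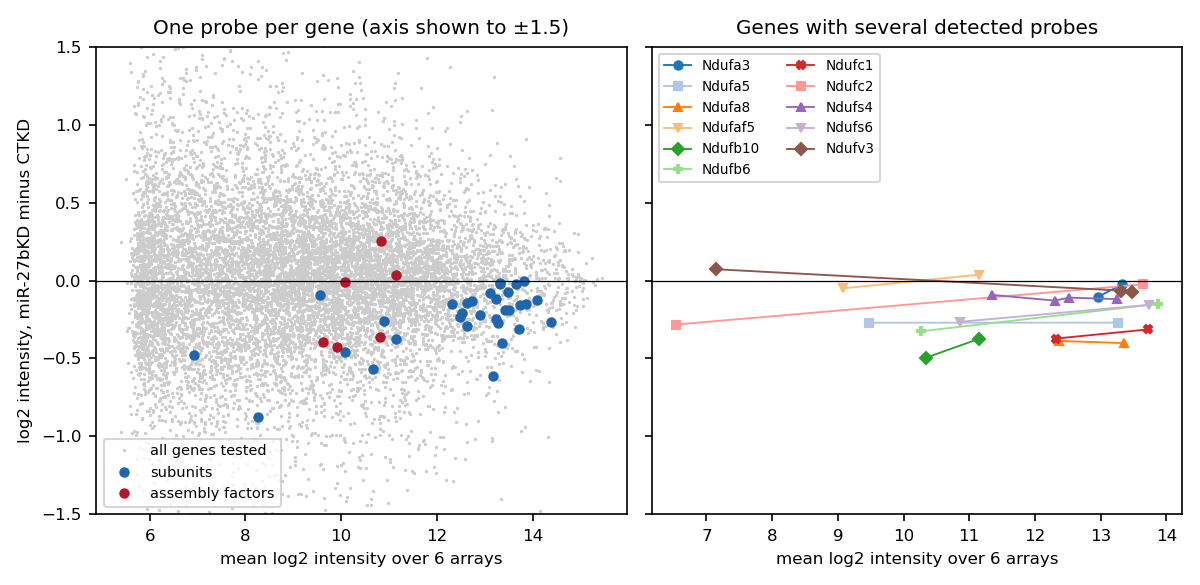
Left, the difference in log2 intensity (miR-27bKD minus CTKD) against mean log2 intensity over 6 arrays for 11280 genes (grey), 32 subunits (blue) and 6 assembly factors (red). On the left the subunit points at 12 or more have a median of −0.16 and those below 12 of −0.46; on the right the probes of the 11 Nduf genes with several detected probes are joined by gene.

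Probes for 3 Nduf genes were not detected on any array, so those genes were not tested. Deposited intensities of Ndufs1, a core N module subunit, were 62.3, 72.8 and 93.3 in miR-27bKD neurons and 90.3, 94.5 and 73.2 in CTKD neurons. Those of Ndufab1, the acyl carrier protein that Ndufa6 and Ndufb9 hold, were 106, 125 and 144 in miR-27bKD neurons and 111, 118 and 110 in CTKD neurons. Those of the assembly factor Ndufaf6 were 74.3, 76.6 and 62.1 in miR-27bKD neurons and 77.2, 72.5 and 80.6 in CTKD neurons. No order can be read from values at this level. The other 8 undetected probes belonged to genes that had another, detected probe. The subunit genes Ndufs5 and Ndufb1 were named by no probe and were not analysed here.

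Other genes of the pathway gave a context. Of 32 detected subunit genes of complexes II to V, 7 fell (21.9%) and 0 rose, where 15.3% of all genes fell and 16.6% rose. All 32 were below 0, against 49.2% of all genes, and the median was −0.20. Sdhc, a membrane anchor of complex II, differed by −0.49 (SE 0.078, adjusted p = 0.00507). Uqcrb of complex III differed by −0.37 (adjusted p = 0.0269) and Atp5h of the ATP synthase by −0.36 (adjusted p = 0.0171). With the pair as a block 7 fell too, but Atp5a1 (adjusted p = 0.0609) and Cox4i1 (0.0544) were lost and Sdhd (0.0454) and Cyc1 (0.0409) were gained. To 2 decimals the reported median equalled that of the complex I subunits.

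Of 9 other detected complex I assembly factor genes, 1 fell (11.1%) and 1 rose, where 15.3% of all genes fell and 16.6% rose. Their median was −0.080. Dmac1, which helps build the distal membrane arm, differed by −0.33 (adjusted p = 0.0427, and 0.0786 with the pair as a block). Tmem186, a partner of the Ndufaf1 complex, differed by 0.35 (adjusted p = 0.0420). Of 12 detected general mitochondrial genes 1 fell (8.33%), Tomm40 of the outer membrane import pore (−0.67, adjusted p = 0.00505), and the list median was −0.12. With the pair as a block Mdh2 passed as well (−0.32, adjusted p = 0.0418). Of 10 detected regulators of mitochondrial biogenesis 1 fell (10%), the coactivator Ppargc1b (−0.84, adjusted p = 0.00341), and the list median was −0.020. In the reported fit the falling share of each of these lists was below the 15.3% of all genes.

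Each gene was followed through 17 alternative settings of background correction, normalisation, filter, pairing, variance model, array weights, probe choice and left-out arrays. Ndufb4, Ndufa6, Ndufb9 and Ndufa8 passed in all 17. Their differences ranged over −1.01 to −0.70 for Ndufb4, −0.79 to −0.57 for Ndufa6, −0.67 to −0.46 for Ndufb9 and −0.59 to −0.38 for Ndufa8. Ndufb7 passed in 15, Ndufaf4 and Ndufaf1 in 14 each, Ndufb10 in 12 and Ndufc1 and Ndufaf8 in 11 each. Ndufs3, Ndufb5 and Ndufaf2 passed in 9 each and Ndufv1 and Ndufa13 in 8 each. When single arrays were left out, Ndufb10 failed without miR-27bKD 1, miR-27bKD 3, CTKD 1 or CTKD 2. Of all arrays, Ndufc1, Ndufs3 and Ndufb5 could spare only miR-27bKD 3, Ndufaf2 only CTKD 3, and Ndufv1 and Ndufa13 none. The highest adjusted p over the settings was 0.0776 for Ndufb10, 0.111 for Ndufc1, 0.137 for Ndufs3, 0.130 for Ndufb5, 0.128 for Ndufv1, 0.108 for Ndufa13 and 0.609 for Ndufaf2. All of these genes kept their sign in all 17.

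**Figure D5:**
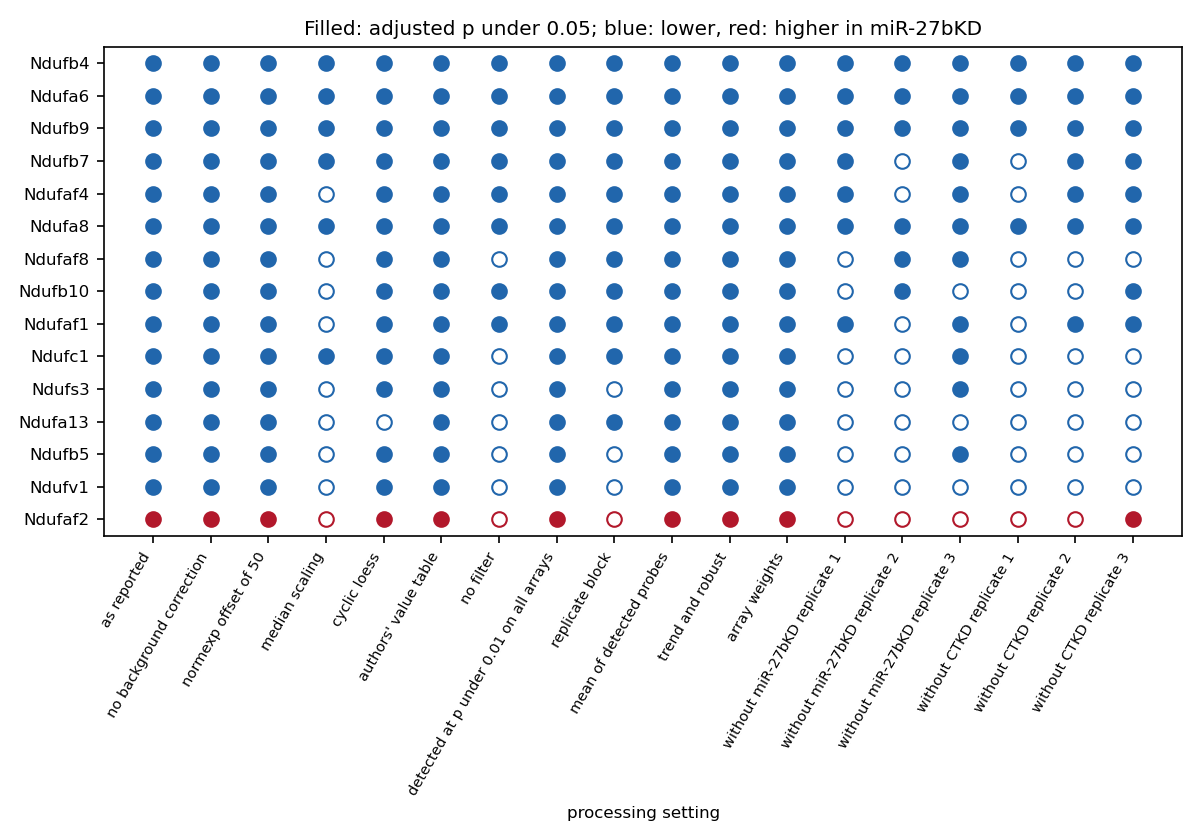
Rows are the 14 subunit and assembly factor genes that fell and the 1 that rose, ordered by difference. Ndufa4, which also fell, is not shown. Columns are the reported setting and 17 alternatives. A filled circle has an adjusted p under 0.05, blue is lower and red higher in miR-27bKD neurons; Ndufb4, Ndufa6, Ndufb9 and Ndufa8 are filled in every column.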

How the data were processed

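Total RNA from 6 cultures of mouse cortical neurons (3 miR-27bKD, 3 CTKD, each seeded at 500000 neurons) was labelled from 500 ng and read on an Illumina bead array, per the labels' protocols. The deposited table gives 1 intensity per probe and array with no normalisation between arrays, per the file headers. The sources used here name neither the scanner software nor its background setting. Each intensity comes with a deposited detection p-value, as its column header calls it. The authors' value table, also an intensity, had 1 common distribution for all arrays. Quantile normalisation of the first table came within 0.00462 (log2) of it for every probe, and it was used as an alternative.

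Background was corrected with limma 3.58.1 (neqc, normexp from detection p-values, offset 16), then values were quantile normalised and taken to log2, in R 4.3.3. Gene symbols came from the platform annotation, and 937 probes were given a current symbol through gene ID or accession in a RefSeq table of GRCm38.p6. A symbol was present for 35784 probes and lacking for 9497. Where several probes of a gene were detected, the one with the highest mean stood for the gene. Differences are miR-27bKD minus CTKD from lmFit and eBayes on all 6 arrays, two-sided, with Benjamini-Hochberg adjustment over 11280 genes (18627 probes in the probe fit) and a threshold of 0.05. The number of arrays limits the precision, and the p-values measure the spread between these 6 samples.

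Deviations of same-numbered arrays from their group means correlated at 0.148, 0.253 and 0.250 across genes, and those of other numbers at −0.206 to 0.003, so numbers were taken as pairs within the 3 preparations the series describes. A fit with the pair as a block is given where it changed a call.

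Every Nduf gene may be named. Values on every array go to the 10 passing subunit genes with the largest difference and the same sign in all pairs, to passing core subunits, to every assembly factor named Nduf and to genes whose probes differ in call or sign. From other lists at most 3 passing genes are named by size, and markers, undetected genes and genes with small differences beyond that were named after their values were seen. Members and lists were chosen with earlier results of these data known. The unpaired fit was also run on simulated data with independent errors for each array. Those data had no pairs, so they do not bear on how pairing affects the calls. Alternatives covered background, normalisation, starting values, filter, pairing, probe choice, variance model, array weights and each left-out array.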

Additional observations from a re-analysis of the deposited data

How the results depend on the processing

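The subunit and assembly factor medians stayed below 0 under every alternative run, and in all of them 0 subunit genes passed as higher (limma; 0 also at an unadjusted p under 0.05 in the reported fit). The reported 11 lower subunit genes became 7 with median scaling, 6 with no filter on dim probes and 17 with a trended, robust variance model. In these fits 12.1%, 5.9% and 18.4% of all genes fell, against 15.3% as reported. The 3 lower assembly factor genes became 0 with median scaling, and the 1 higher became 0 with median scaling, with no filter and with the replicate block (limma). The 13 lower subunit and assembly factor probes became 7 with median scaling, 7 with no filter, 25 with the trended, robust model and 20 with array weights. The median subunit difference of −0.20 became −0.36 with median scaling, and the assembly factor median of −0.19 became −0.29 with median scaling and −0.065 with no filter, which adds undetected genes. Leaving out 1 array gave 4 to 9 lower subunit genes, 0 to 3 lower and 0 to 1 higher assembly factor genes, 3 to 12 lower probes, subunit medians of −0.25 to −0.18 and assembly factor medians of −0.23 to −0.14. In the fits with 1 array left out, 9.29% to 13.1% of all genes fell. With the replicate block, 9 subunit genes and 11 probes were lower, and both medians were as reported. Of all genes 16.3% fell with the replicate block. Median scaling turned the median of all genes to −0.078, against 0.0058 as reported, and gave 1369 lower and 919 higher genes, against 1725 lower and 1873 higher as reported. The subunit median then stood 0.285 below that of all genes, against 0.206 as reported. Subunit genes below 0 numbered 29 of 32 without miR-27bKD 1 or without CTKD 3, and 33 of 34 with no filter. Under the other alternatives they numbered 31 or 32, with 31 or 32 tested. Cells and RNA content were not measured, and each probe reads only part of its transcript. The cause of these changes was not tested.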
